A study of Caenorhabditis elegans with 9 samples.

Results

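The genes described are *unc-32*, *vha-5*, *vha-6* and *vha-7*, which encode the a-subunit isoforms of the v-ATPase in *C. elegans*. They were taken by symbol and are 4 of the 46926 gene rows in the count table, and all 4 passed the filter on low counts. The table comes from RNA-seq of polyadenylated RNA from whole worms of the wild-type strain N2, with 3 libraries for each of 3 feeding conditions. In AL, worms were fed undiluted HT115 bacteria (ad libitum). In DR1 they were fed diluted HT115, and in DR0 they had no bacteria. Every worm had been raised on HT115 control bacteria, and the condition was applied from adult day 1 for 24 h on plates with 10 µg/ml kanamycin, an antibiotic that stops the bacteria growing. The study asked how dietary restriction on solid plates changes gene expression. Whether libraries of the same condition were grown separately is not given in the sources used here, so the p values measure only the spread between these libraries, which may be technical. Total counts were between 9203611 and 12012750 per library.

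The v-ATPase is a rotary proton pump. Its V1 sector in the cytosol breaks down ATP, and its V0 sector in the membrane carries protons into lysosomes and other compartments, or out of the cell. The a subunit is the V0 subunit that holds the path of the protons beside the rotating ring, and the isoform of this subunit is known to direct the pump to particular membranes and tissues. In *C. elegans*, *vha-6* acts in the apical membrane of the intestine, where the pump acidifies the gut lumen. *vha-5* acts in the epidermis and in the excretory cell, which regulates water and salts. *vha-7* is known from the epidermis, the uterus and the spermatheca. *unc-32* is the broadly used isoform and is needed in neurons, where the pump fills synaptic vesicles.

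On WBcel235, *unc-32* (WBGene00006768) lies on chromosome III at 8905615 to 8911756, plus strand. It has 6 annotated transcripts whose coding lengths all differ, and the longest encodes 905 residues. *vha-5* (WBGene00006914) lies on chromosome IV at 8303968 to 8307371, plus strand, and encodes 873 residues. *vha-6* (WBGene00006915) lies on chromosome II at 11435210 to 11438452, minus strand, and its only annotated transcript encodes 865 residues. *vha-7* (WBGene00006916) lies on chromosome IV at 12640462 to 12650652, plus strand, and its longest product has 1210 residues. The exon length of each gene, with overlapping exons of its transcripts merged, is 3625 bases for *unc-32*, 2967 for *vha-5*, 2699 for *vha-6* and 3901 for *vha-7*. Counting joined the transcripts of a gene and did not use strand. In the annotation, 38 exon bases of *unc-32* and 57 exon bases of *vha-5* are shared with a gene on the opposite strand, and *vha-6* and *vha-7* share none.

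*vha-6*, the intestinal isoform, fell 3.30-fold in DR1 and 2.36-fold in DR0, both against AL. Its expression is given in CPM, read counts relative to the TMM-scaled total of the library. The AL libraries had 289.9, 308.2 and 307.0 CPM. Diluted food gave 87.7, 88.0 and 98.5 CPM, and no food gave 123.6, 130.3 and 128.8 CPM. All DR1 and DR0 libraries were therefore far below the AL libraries, and DR1, not DR0, was the lowest of the 3 conditions. The log2 fold change was −1.72 ± 0.052 (SE, n = 3 per condition) in DR1, with an edgeR quasi-likelihood adjusted p of 9.47e-19. In DR0 it was −1.24 ± 0.051, with an adjusted p of 6.49e-16. DR0 was higher than DR1 by 0.48 ± 0.054 on the log2 scale (edgeR adjusted p = 1.07e-07), and the libraries of these conditions did not overlap. This direction held when libraries were scaled by their total counts alone, with a smaller difference of 0.19 (adjusted p = 0.00569). In RNA from whole worms, fewer cells of a type and less RNA per cell cannot be told apart.

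*vha-5*, the isoform of epidermis and excretory cell, changed most of the 4 genes. It fell 4.37-fold in DR1 and 8.67-fold in DR0. In AL its libraries had 106.8, 113.9 and 108.8 CPM. They had 23.2, 27.3 and 24.8 CPM in DR1 and 12.2, 12.05 and 13.6 CPM in DR0. The 3 conditions formed separate, narrow groups, ordered AL, DR1, DR0. The DR0 values rest on 106, 109 and 137 counts, the fewest for any of the 4 genes. The log2 fold change was −2.13 ± 0.076 (edgeR adjusted p = 2.42e-17) in DR1 and −3.12 ± 0.086 (edgeR adjusted p = 2.00e-19) in DR0. Of all genes tested, 1.94% had a lower log2 fold change than *vha-5* in DR1 and 0.816% in DR0. From DR1 to DR0 *vha-5* was lower by a further 1.98-fold, a log2 fold change of −0.99 with a 95% interval of −1.19 to −0.79 (edgeR adjusted p = 1.28e-08). This is just short of the fold threshold of 2 used for calls here, and it passed that threshold under several alternatives, among them total-count scaling (−1.28) and leaving out DR1 replicate 1 (−1.04) or DR0 replicate 3 (−1.04).

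*vha-7* had the lowest expression per library in AL and also declined in the order AL, DR1, DR0, in smaller steps. Its libraries had 52.8, 49.97 and 48.3 CPM in AL. In DR1 they had 31.6, 31.9 and 32.5 CPM, and in DR0 they had 23.8, 24.6 and 25.7 CPM. No 2 conditions overlapped. The log2 fold change was −0.65 ± 0.079 (edgeR adjusted p = 1.83e-07) in DR1, which is 1.57-fold lower and short of the fold threshold. In DR0 it was −1.02 ± 0.084 (edgeR adjusted p = 2.60e-10), which is 2.03-fold lower and just past it. The 95% interval in DR0, −1.20 to −0.85, includes the threshold of −1, and without AL replicate 1 the value was −0.996 and short of it. DR0 was lower than DR1 by a log2 fold change of −0.37 ± 0.086 (edgeR adjusted p = 0.00112). With total counts the step from AL to DR1 was smaller (−0.30, adjusted p = 0.00193) and that from DR1 to DR0 larger (−0.66, adjusted p = 7.7e-07).

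*unc-32*, the neuronal and broadly used isoform, stayed nearest to its AL expression. The AL libraries had 176.4, 168.7 and 179.8 CPM. In DR1 the libraries had 168.3, 175.8 and 189.5 CPM and overlapped those of AL, the only such overlap among the 4 genes. How many of all genes tested have libraries that separate between conditions was not determined, so separation is not shown to be particular to the isoforms. The DR0 libraries had 158.6, 151.6 and 154.1 CPM and lay below every other library. In DR1 the log2 fold change was 0.02 with a 95% interval of −0.08 to 0.13 (edgeR adjusted p = 0.697), and its sign turned without AL replicate 2 (−0.01) or DR1 replicate 3 (−0.02). This result depends on how the libraries are scaled: *unc-32* was higher in DR1 by 0.37 with total counts (adjusted p = 7.6e-07), by 0.26 with quantile normalization (adjusted p = 0.000157) and by 0.13 when genes averaging under 5 CPM were left out (adjusted p = 0.0262). With total counts, the median log2 fold change of all genes tested was itself 0.38 in DR1, against 0.03 with TMM. In DR0 *unc-32* was lower than in AL by 0.18 on the log2 scale (1.13-fold, edgeR adjusted p = 0.00444), and when genes averaging under 5 CPM were left out the difference of −0.11 had an adjusted p of 0.0639. It was lower in DR0 than in DR1 by a log2 fold change of −0.20 (edgeR adjusted p = 0.00235), or −0.49 with total counts.

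**Figure D1:**
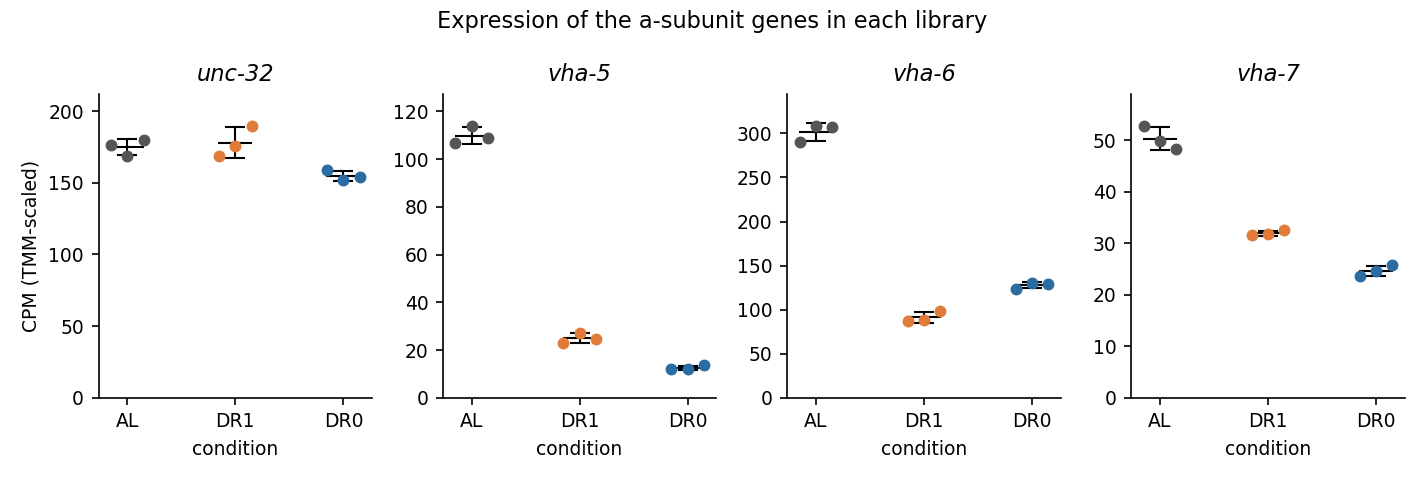
Expression of the 4 a-subunit genes in CPM (TMM-scaled, vertical axis from 0 on its own scale for each gene) in the 3 AL, 3 DR1 and 3 DR0 libraries. Points are libraries and the bars are the mean and SD of 3 libraries. *vha-5* and *vha-7* step down from AL to DR1 to DR0, *vha-6* is lowest in DR1, and the *unc-32* libraries of AL and DR1 overlap between 168.7 and 179.8 CPM.

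Counted together, 2 of the 4 genes (*vha-5* and *vha-6*) fell in DR1 and none rose, at an adjusted p below 0.05 and a fold change above 2. By the same rule 8.62% of all genes tested fell in DR1 and 10.6% rose. By the adjusted p alone, 3 of the 4 were lower in DR1 and none was higher, where 31.6% of all genes were lower and 28.5% higher. In DR0, 3 of the 4 fell (*vha-5*, *vha-6* and *vha-7*), beside 8.16% of all genes tested that fell and 11.3% that rose. All 4 were lower in DR0 by the adjusted p alone, beside 31% of all genes that were lower and 29.6% that were higher. Between DR0 and DR1 none of the 4 passed both thresholds, while 1.44% of all genes rose and 1.03% fell. By the adjusted p alone *vha-6* was higher in DR0 than in DR1 and the other 3 genes were lower, and 21.2% of all genes were higher and 17.8% lower. The 3 comparisons share libraries, so their results are not independent of each other.

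A ratio of 2 genes within a library does not depend on how libraries are scaled, so the 6 pairs of a-subunit genes were compared by the log2 ratio of their counts. An exact permutation test of the between-condition F statistic over all assignments of the 9 libraries to 3 groups of 3 gave p = 0.00357 for each pair, which is the smallest p it can give, and the Benjamini-Hochberg adjusted p over the 6 pairs was 0.00357 too. With 3 against 3 libraries an exact test cannot go below 0.10, so no pair of conditions was tested on its own. *vha-5* lost the most against *unc-32*. The log2 ratio of *unc-32* over *vha-5* was 0.67 ± 0.09 (SD, n = 3) in AL, 2.83 ± 0.13 in DR1 and 3.62 ± 0.10 in DR0. The 2 isoforms with epidermal expression also parted from each other. *vha-5* had more counts than *vha-7* in AL, with a log2 ratio of 1.13 ± 0.09, and fewer in DR1 (−0.35 ± 0.12) and DR0 (−0.97 ± 0.06). In no pair did the 3 libraries of one condition overlap those of another. How many pairs of other genes reach the smallest p, or separate in this way, was not determined. Neither is therefore shown to be particular to these isoforms.

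The intestinal and the broadly used isoform changed places and then came close. The log2 ratio of *unc-32* over *vha-6* was −0.79 ± 0.08 in AL, 0.96 ± 0.03 in DR1 and 0.28 ± 0.07 in DR0. *vha-6* had the larger count in every AL library and *unc-32* in every DR1 and DR0 library, before gene length is considered. Against *vha-7*, *vha-6* had a log2 ratio of 2.58 ± 0.11 in AL, 1.51 ± 0.07 in DR1 and 2.37 ± 0.04 in DR0. The difference between DR0 and AL in that ratio, −0.21, was the smallest of the 6 pairs between these conditions, and even so the highest DR0 library (2.40) lay below the lowest AL library (2.46). *vha-5* over *vha-6* differed by −0.41 between AL (−1.46 ± 0.03) and DR1 (−1.86 ± 0.16), and by −1.47 between DR1 and DR0 (−3.34 ± 0.10). *unc-32* over *vha-7* was 1.80 ± 0.09 in AL, 2.47 ± 0.06 in DR1 and 2.65 ± 0.08 in DR0.

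**Figure D2:**
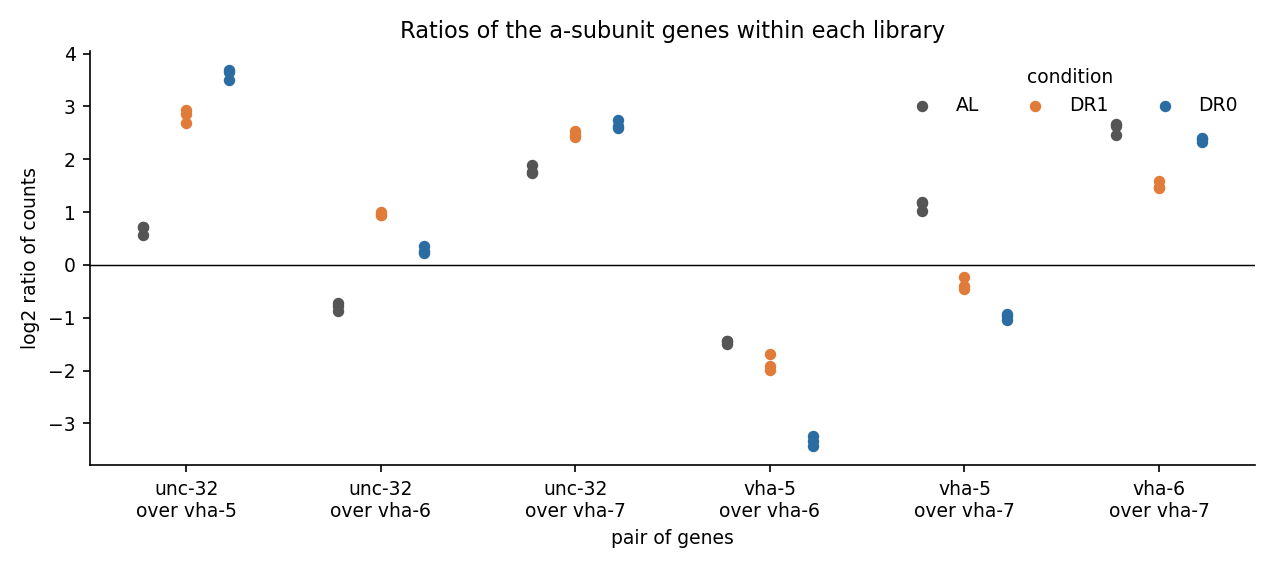
Log2 ratio of the counts of 2 a-subunit genes within a library (vertical axis) for each of the 6 pairs, with AL, DR1 and DR0 libraries as points of different colour. The line at 0 marks equal counts. Only *unc-32* over *vha-6* (−0.79 in AL, 0.96 in DR1) and *vha-5* over *vha-7* (1.13 in AL, −0.35 in DR1) cross it.

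Levels of different genes were compared per kilobase of merged exon. In AL, *vha-6* was first with 111.8 ± 3.803 CPM per kb, followed by *unc-32* with 48.3 ± 1.58, *vha-5* with 37.0 ± 1.23 and *vha-7* with 12.9 ± 0.578. No neighbours in this order overlapped, and *vha-6* was 2.32 times *unc-32*. In DR1, *unc-32* was first with 49.1 ± 2.96 CPM per kb and *vha-6* second with 33.9 ± 2.28. *vha-5* (8.47 ± 0.706) and *vha-7* (8.20 ± 0.126) were last, and their libraries overlapped, so these neighbours did not differ beyond their spread. In DR0, *vha-6* with 47.3 ± 1.30 CPM per kb was 1.11 times *unc-32* with 42.7 ± 0.965. *vha-7* with 6.33 ± 0.2502 was above *vha-5* with 4.25 ± 0.286, so *vha-5*, which was above *vha-7* under AL, was last here. The order of the first pair in DR0 depends on the length used: per coding length, *unc-32* was above *vha-6* there, with 48.4% against 41.7% of the summed a-subunit level.

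Shares of the summed level show the same values as a make-up of a-subunit transcripts. *vha-6* made up 53.2% ± 0.872 in AL, 34.0% ± 0.784 in DR1 and 47.0% ± 1.07 in DR0. The share of *unc-32* was 22.99% ± 0.914, 49.2% ± 0.294 and 42.5% ± 1.21 in the same order. *vha-5* shrank from 17.6% ± 0.435 under AL to 8.51% ± 0.746 under DR1 and 4.23% ± 0.254 under DR0. *vha-7* had a share of 6.15% ± 0.386 under AL, 8.25% ± 0.317 under DR1 and 6.30% ± 0.196 under DR0. This share was thus, in AL and DR0, about equal, although its own level in DR0 was 49.1% of that in AL, because the summed level was lower too.

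**Figure D3:**
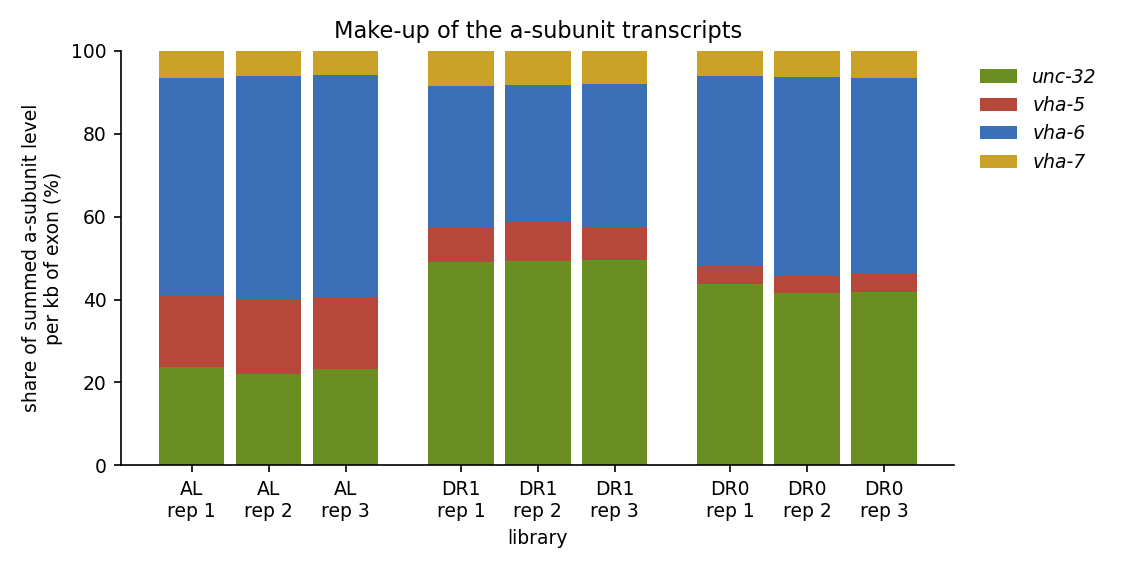
Share of each a-subunit gene in the summed a-subunit level per kb of exon (vertical axis, percent) in each of the 9 libraries. Bars of one condition are nearly alike, *unc-32* has the largest share in DR1 (49.2%), *vha-6* has it in AL (53.2%) and DR0 (47.0%, but not per coding length), and *vha-5* shrinks from 17.6% in AL to 4.23% in DR0.

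The summed level of the 4 genes was 210.0 ± 3.803 CPM per kb under AL, 99.6 ± 5.42 under DR1 and 100.6 ± 0.836 under DR0. The sum thus differed from AL by −110.4 CPM per kb under DR1 and −109.4 under DR0, a similar amount with a different composition. With total counts in place of TMM, a setting chosen after seeing the data, the sum was 191.1 ± 3.04 in AL, 115.2 ± 6.36 in DR1 and 95.01 ± 0.951 in DR0, so DR0 was then below DR1, while the shares do not depend on scaling. *vha-6* accounted for 70.6% of the difference in DR1 and 59.0% in DR0. *vha-5* accounted for 25.9% and 29.9%. Unlike the shares, these percentages of the difference are for TMM and depend on the scaling, and they were not determined with total counts. Between DR1 and DR0 the sum with TMM differed by 0.941 CPM per kb, to which *vha-6* added 13.4, *unc-32* −6.37, *vha-5* −4.21 and *vha-7* −1.87. Set against *vha-13*, which encodes the catalytic A subunit of V1, the summed a-subunit level was 1.124 ± 0.035 under AL, 1.32 ± 0.090 under DR1 and 0.986 ± 0.047 under DR0.

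The other 18 v-ATPase subunit genes, 10 of V1, 6 of V0 and 2 accessory, were set beside the isoforms. In DR1, 8 of the 18 fell and none rose, beside 8.62% of all genes tested that fell and 10.6% that rose. By the adjusted p alone 17 were lower, beside 31.6% of all genes. The median log2 fold change of the 18 was −0.97, with a range of −1.76 to −0.26, beside a median of 0.03 over all genes tested. *vha-12*, the B subunit (−1.76), *vha-8*, the E subunit (−1.68), and *vha-11*, the C subunit (−1.56), were lowest, near the −1.72 of *vha-6*. *vha-13* (A), *vha-2* and *vha-3* (c), *vha-4* (c″) and *vha-19* (the accessory subunit Ac45) fell as well. *vha-2* and *vha-3* are known to encode the same protein, so how their reads were divided is less certain. *vha-2* also shares 219 exon bases with a gene on the same strand, where reads were not assigned. *vha-5* lay below all 18 in DR1, and *unc-32* above all 18. With total-count or quantile scaling 4 of the 18 fell, as against 8.

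In DR0, 5 of the 18 fell (*vha-3*, *vha-8*, *vha-11*, *vha-12* and *vha-19*), none rose, and 16 were lower by the adjusted p alone. Of all genes tested, 8.16% fell, 11.3% rose and 31% were lower by the adjusted p alone. The median of the 18 was −0.59, with a range of −1.46 to −0.002, beside 0.03 over all genes. *vha-5* at −3.12 was again below all 18. *unc-32* at −0.18 was above all but *vha-9* (F, −0.17) and *vha-17* (e, −0.002). Between DR0 and DR1 none of the 18 passed both thresholds, where 1.44% of all genes rose and 1.03% fell. By the adjusted p alone 13 were higher in DR0, beside 21.2% of all genes. *vha-18*, which encodes an H subunit, was lower, beside 17.8% of all genes. With total-count scaling, however, 6 of the 18 were higher and 6 lower. The median with TMM was 0.32, beside 0.01 over all genes, and *vha-6* at 0.48 lay within the range of the 18 (−0.32 to 0.58). *vha-5* (−0.99) and *vha-7* (−0.37) lay below that range.

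**Figure D4:**
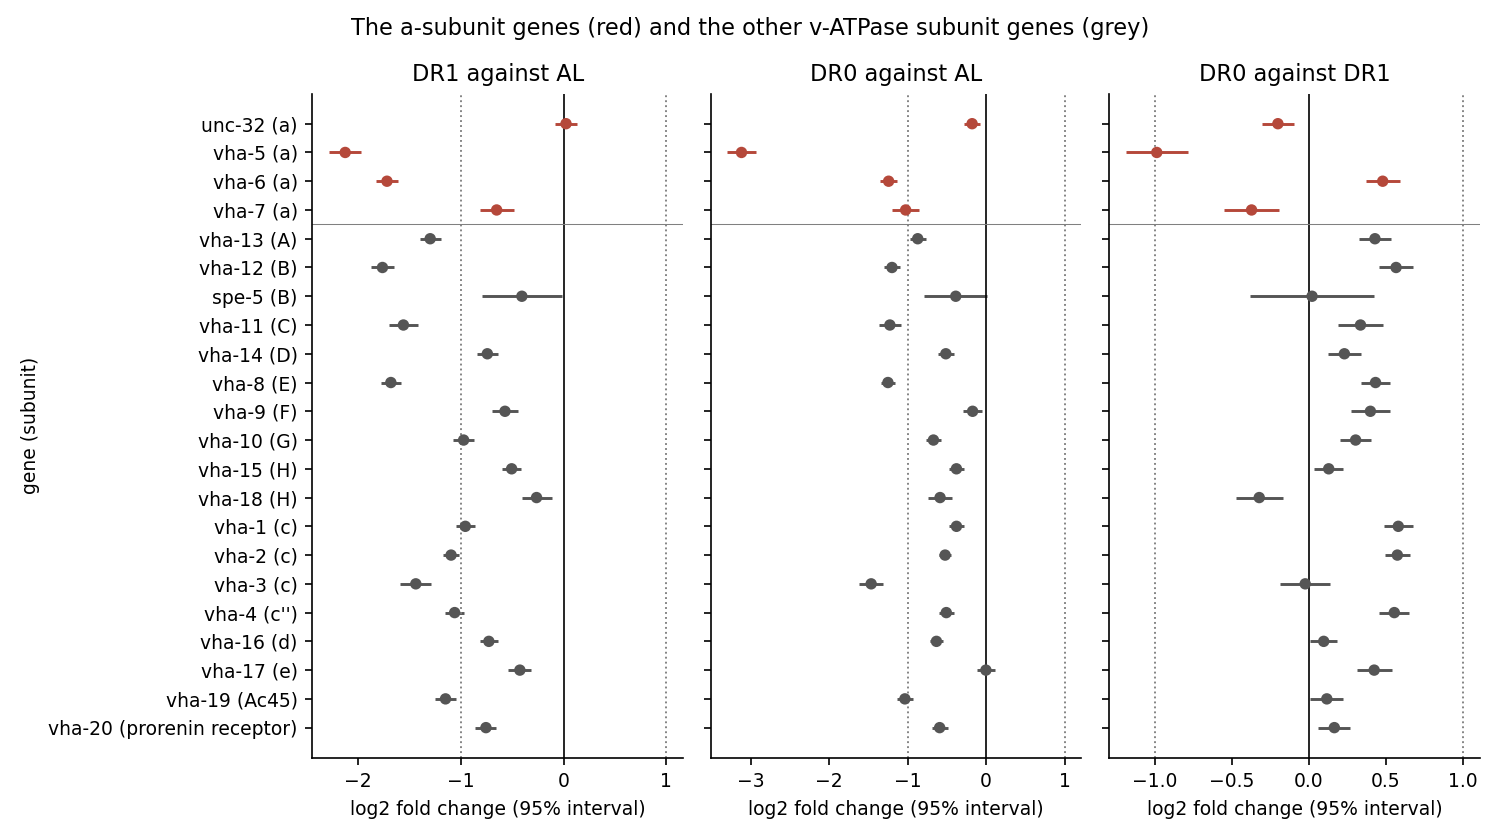
Log2 fold changes with 95% intervals (horizontal axis) of the 4 a-subunit genes (red) and the other 18 v-ATPase subunit genes (grey, with the subunit in parentheses) for DR1 against AL, DR0 against AL and DR0 against DR1, from edgeR with TMM scaling. Dotted lines mark −1 and 1. *vha-5* is furthest left in all 3 panels (−2.13, −3.12 and −0.99), and 16 of the 18 grey points of the last panel lie right of 0, against 10 with total-count scaling.

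Marker genes of the tissues in which the isoforms act were set beside them. For *vha-6*, the summed level of 10 intestinal markers was 1505 to 1536 CPM under AL, 507.0 to 536.0 under DR1 and 618.1 to 644.1 under DR0. DR1 was the lowest with TMM, but with total counts DR1 (588.0 to 619.7 CPM) and DR0 (584.3 to 609.3 CPM) overlapped. Under each restriction, 5 of the 10 fell and none rose. Of all genes tested, 8.62% fell and 10.6% rose in DR1, and 8.16% fell and 11.3% rose in DR0. *act-5*, the actin of the intestinal microvilli, had the most counts of the list and had 922.0 CPM under AL, 205.2 under DR1 and 303.1 under DR0. *elt-2*, the GATA factor that defines the intestine, had 23.8 ± 2.64 CPM under AL, 24.1 ± 0.672 under DR1 and 24.9 ± 2.41 under DR0, and *ges-1*, a gut esterase, was higher in DR1 by 1.00 on the log2 scale and in DR0 by 0.73. The markers of this tissue thus moved in both directions, and their part in the result for *vha-6* was not tested.

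For *vha-5*, 9 of 12 epidermal markers passed the filter, of which 2 fell under each restriction, and 1 rose, under DR0. Of all genes tested, 8.62% fell in DR1, and 8.16% fell and 11.3% rose in DR0. The summed level of the epidermal markers was 1209 to 1271 CPM under AL, 210.7 to 224.7 under DR1 and 240.6 to 247.6 under DR0. Most of it in AL was *col-19*, a cuticle collagen of adults (1040 CPM under AL, 33.4 under DR1 and 37.7 under DR0). The other epidermal marker that fell was *nhr-23*, a receptor known from molting (−1.50 in DR1 and −1.03 in DR0), and *cuti-1*, an epithelial gene, rose by 1.26 in DR0. The larval collagens *rol-6* and *col-12* and the Hedgehog-related gene *wrt-2* were at or near 0 in every condition. *elt-1*, the GATA factor that specifies epidermis, had 42.7 ± 2.29 CPM under AL, 47.4 ± 3.69 under DR1 and 45.4 ± 1.49 under DR0. The 9 markers of the excretory canal, the other site of *vha-5*, had summed levels of 124.3 to 136.2 CPM under AL, 129.2 to 144.1 under DR1 and 135.3 to 141.9 under DR0. Of the 8 that passed the filter, *exc-5* rose under both (1.56 and 1.14), and *nhr-31* fell under DR0 (−1.04). *aqp-8*, an aquaporin of that cell, had 19.5 ± 1.09 CPM under AL, 12.9 ± 1.18 under DR1 and 15.5 ± 2.34 under DR0. The part of either tissue in the result for *vha-5* was not tested.

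For *vha-7*, the epidermal markers described beside *vha-5* apply as well. They summed to 1209 to 1271 CPM under AL, 210.7 to 224.7 under DR1 and 240.6 to 247.6 under DR0, mostly *col-19* in AL. The median log2 fold change of those that passed the filter was 0.15 in DR1 and 0.09 in DR0. The 5 markers of spermatheca and uterus summed to 163.9 to 164.3 CPM under AL, 158.9 to 166.5 under DR1 and 162.7 to 172.4 under DR0. Most of that was *fln-1*, a filamin that other tissues also use. *sth-1*, a marker of the spermatheca, fell in both (−1.78 in DR1 and −1.70 in DR0) from a level of only 1.91 CPM in AL. Falls made up 8.62% of all genes tested in DR1 and 8.16% in DR0. Of the same list, *ipp-5* was lower by the adjusted p alone (−0.36 and −0.51). *spv-1*, at 4.19 CPM in AL, went the other way (0.72 and 0.73, edgeR adjusted p = 0.00569 and 0.00577). For *unc-32*, none of the 13 neuronal markers that passed the filter, of 14, rose or fell in DR1 or DR0. Among all genes tested, falls made up 8.62% and rises 10.6% in DR1, against 8.16% and 11.3% in DR0. The shares by adjusted p alone were 28.5% higher and 31.6% lower in DR1, and 29.6% and 31% in DR0. By that looser rule 4 of these 13 markers were higher and 1 was lower under either restriction. Their summed level was 527.2 to 555.8 CPM under AL, 539.2 to 560.4 under DR1 and 691.0 to 696.1 under DR0, so it was highest in DR0, where *unc-32* was lowest. With total counts it was still highest there (653.8 to 655.9 CPM, against 625.3 to 646.3 under DR1). *snb-1*, synaptobrevin of the synaptic vesicle, made up most of it. Its own log2 fold change was −0.04 in DR1 and 0.44 in DR0 (edgeR adjusted p = 0.431 and 2.81e-09). The part of these tissues in the results for *vha-7* and *unc-32* was not tested.

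The summed markers of 2 tissues that no isoform was matched to also differed between the conditions. The 13 markers of oocytes and germ line summed to 4136 to 4243 CPM under AL, 1347 to 1435 under DR1 and 2491 to 2531 under DR0, and 10 of them fell in DR1 and 2 in DR0. The 6 markers of body muscle summed to 837.5 to 855.5 CPM under AL, 467.6 to 516.3 under DR1 and 1027 to 1045 under DR0, where 1 fell in DR1 and 1 rose in DR0. Of all genes tested, 8.62% fell in DR1, and 8.16% fell and 11.3% rose in DR0. The part of germ line and muscle in the results for the 4 genes was not tested either.

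The genes whose pattern was most like each isoform were taken from the 8436 tested genes that averaged 10 CPM or more, by the root mean square difference from it in log2 CPM over the 9 libraries, each gene centred on its own mean. For *vha-6* the nearest was *vha-8* (0.05), with 390.0 CPM under AL, 121.4 under DR1 and 163.9 under DR0, and the second was *vha-12* (0.07). The next were *asp-4*, an aspartyl protease of the lysosome (0.08), at 2566, 825.9 and 1096 CPM, and *ifc-2*, an intermediate filament of the intestine (0.08), at 271.4, 92.9 and 125.3 CPM. The last of its 5 was Y69H2.3 (0.09). Among the 5 genes nearest to *vha-6* were thus 2 V1 subunit genes, whereas none of the 5 nearest to the other isoforms was a v-ATPase gene.

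*vha-5* had no neighbour as close. The nearest was *irg-4*, known as a gene of the infection response, with a difference of 0.14 and a mean of 373.4 CPM under AL, 73.2 under DR1 and 35.2 under DR0. It was followed by R09H10.5 (0.20), *mua-6* (0.22), K11H12.4 (0.24) and F35E12.10 (0.24). *mua-6* encodes an intermediate filament of the epidermis and was at 44.0, 8.43 and 5.95 CPM. For *vha-7* the nearest genes were F48E3.4 (0.04), *gly-20*, an enzyme of N-glycan synthesis (0.05), *papl-1* (0.06), F25H8.2 (0.06) and C17G10.1 (0.07). F48E3.4 had 415.1 CPM under AL, 259.4 under DR1 and 195.9 under DR0. For *unc-32* they were *set-1*, a histone methyltransferase (0.05), *gop-2* (0.05), *rbm-26* (0.05), T08G11.4 (0.05) and F56C9.10 (0.05), with *set-1* at 265.1, 268.0 and 233.5 CPM.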

How the data were processed

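RNA-seq was done on whole N2 worms in 9 libraries, 3 per condition. The table that the authors deposited holds raw read counts, one row a gene, made on WBcel235 with Ensembl release 89 by counting reads over exons without strand, so reads on exons shared by 2 genes were not assigned. The paper and the sample notes name different sequencers and aligner versions (STAR 2.73a in the submitters' processing notes). No library was left out.

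The analysis used edgeR 4.0.16 under R 4.3.3: filterByExpr (14332 of 46926 genes tested), TMM scaling, glmQLFit with 1 mean per condition and glmQLFTest, with Benjamini-Hochberg adjustment over all genes tested. Common dispersion gave a biological coefficient of variation of 6.59%. Rose and fell mean an adjusted p below 0.05 and an absolute log2 fold change above 1. The SE is the log2 fold change over the square root of F. Exon and coding lengths and positions came from Ensembl release 115, in which all 22 v-ATPase genes sought were found. Among the 4 isoforms, *vha-5* in DR0 had the fewest counts. The fit was tested on simulated data.

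The genes named were the 4 isoforms, the other 18 subunits, the 5 genes most like each isoform, and defining markers of the tissues beside them. The members and lists were chosen with earlier results of these data known. Alternatives were limma-voom (limma 3.58.1), DESeq2 1.42.0, scaling by RLE, by quantiles or by total counts, 2 other filters on low counts, fits of only the compared conditions, a test against a fold change of 2, the replicate number as a block, leaving out each library, a pseudocount of 0.5 in the ratios, and coding length.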

Additional observations from a re-analysis of the deposited data

How the results depend on the processing

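Of the alternatives for the log2 fold changes of the 4 genes, 218 left the call by adjusted p and fold together as it was, 5 made a call and 5 lost one. These counts leave out changes of sign or of the adjusted p alone in values that were not called, such as those of *unc-32*. All 5 gained calls were *vha-5* in DR0 against DR1, which passed a fold change of 2 with scaling by total counts (−1.28), by quantiles (−1.02), among genes averaging 5 CPM or more (−1.02) and without DR1 replicate 1 or DR0 replicate 3, over a range of −1.04 to −0.93 with each library left out. All 5 lost calls were *vha-7* in DR0 against AL. They were at −0.97 with total counts, −0.84 with quantiles and −0.95 among genes averaging 5 CPM or more. The others were −1.02 in the test against a fold change of 2 (adjusted p = 0.926) and −0.996 without AL replicate 1. Leaving out any other library kept the call, over a range of −1.06 to −0.996 for all such fits. No called value changed sign. With total counts, the summed a-subunit level was lower in DR0 than in DR1, whereas with TMM the libraries of DR0 and DR1 overlapped. The summed intestinal markers of DR1 and DR0 overlapped with total counts, whereas with TMM DR1 was lower (settings chosen after seeing the data). Total-count scaling moved the median log2 fold change of all genes to 0.38 in DR1 against AL, 0.09 in DR0 against AL and −0.29 in DR0 against DR1, and total-count and quantile scaling each left 4 of the other 18 subunits that fell in DR1 against AL. The *unc-32* value in DR1 against AL ranged from −0.02 to 0.07 with each library left out, with no adjusted p past the threshold. With coding length, the shares in AL, DR1 and DR0 were 27.3%, 55.0% and 48.4% for *unc-32* and 49.1%, 29.6% and 41.7% for *vha-6*; the share of *vha-7* was 7.41% in DR1 and 5.78% in DR0, and the summed level over *vha-13* was 0.987 in AL and 0.90 in DR0. The cause of these changes was not tested beyond the change of length or scaling itself. All 66 alternatives of the ratios were like the values reported, and 82 of 84 counts of other subunits were. For the ratios, only the difference between DR0 and AL was compared, and like means the same sign with an exact p below 0.05. Counts were taken as like when close, not only when equal, such as 6 subunits that fell in DR1 among genes averaging 5 CPM or more, against 8.

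Libraries with the same replicate number did not deviate together, with correlations of −0.02 to 0.05, so the numbers were not taken as pairs. With the replicate number as a block, *vha-5*, *vha-6* and *vha-7* had log2 fold changes of −3.12, −1.24 and −1.02 in DR0 against AL, 1503 genes rose and 1237 fell in DR1 as against 1517 and 1235, and no call of the 4 genes changed. The exact p of each ratio within replicate numbers was 0.0278, the smallest that the assignments within numbers can give. Of the 3 genes that fell in DR0, *vha-5* rests on the fewest counts, 106 to 137 per library.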
